A study of Mus musculus with 6 samples.

Results

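Megakaryocytes are the marrow cells that shed platelets, and 10 genes of this lineage were followed in cells labelled as hematopoietic stem cells (HSCs) with high and with low surface MHC class II (MHCII). The 10 were set by name among 30733 gene symbols. A set of 6 was taken as platelet-specific: Pf4, Ppbp, Itga2b, Gp1bb, Gp9 and Vwf. A set of 4 was taken as shared with other blood cells: Nfe2, Plek, Cd9 and Treml1, of which Treml1 is also known as a receptor stored in platelet granules. RNA came from bone marrow HSCs of wild-type (WT) mice aged 12 months, sorted into MHCII_hi and MHCII_lo fractions with 3 libraries each. No treatment or further allele is named for either group, and the gates of the sort, the sex and the number of mice are not stated. The labels do not say whether each library is a different animal, and p-values therefore describe the scatter among these 6 libraries, which may be technical.

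Megakaryocytes arise from HSCs under the hormone thrombopoietin. GATA1, FLI1, RUNX1 and NF-E2 are transcription factors that drive their genes, and the maturing cell stores chemokines and adhesive proteins in granules and builds proplatelets from tubulin. Platelets bind von Willebrand factor through the glycoprotein Ib-IX-V complex and fibrinogen through integrin alphaIIb-beta3. Some HSCs carry RNA of this lineage, Vwf and Itga2b among it.

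Values are FPKM (fragments mapped to a transcript per kilobase of its length and per library size, a unit inferred from the tables), which are relative to the rest of a library and corrected for transcript length. Summed values per library were 327291 to 346595, and depth is unknown. Genes averaging 1 FPKM or more across the libraries entered the limma test on log2(FPKM + 1), a scale that understates the change of low genes. Fold changes are MHCII_hi minus MHCII_lo, and ± gives the SD over 3 libraries. Of 12037 tested genes, 60.9% were called at an adjusted p under 0.05 (20.4% higher and 40.6% lower in MHCII_hi), and in 67.6% the groups did not overlap. The median tested gene had a log2 fold change of −0.12, and of the called genes 33.4% were higher as deposited, 49.8% after median-ratio scaling and 52.1% when libraries were scaled to their total without neutrophil genes. Of 12 listed stem cell markers, 6 (Procr, Slamf1, Mecom, Fgd5, Hoxb5 and Tek) stayed under 1 FPKM in all libraries, the highest value among them being 0.79 FPKM. The other 6, Kit and Cd34 among them, reached the limit for testing.

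Promoter windows were held in the RefSeq table (GRCm38.p6) for 8 of the 10 genes, each from 250 bases before to 50 bases after the start. Shown are the 3 platelet-specific genes that were called and Cd9, which had the largest increase. Capitals mark matches to GATA letters (GATA after an A or a T and before an A or a G), ETS letters (GGAAG after an A or a C), the NF-E2 letters TGAGTCA and the RUNX letters TGTGGT, all searched on both strands, and TATAAA on the gene's strand. No 2 kinds of match overlapped in the windows shown.
Pf4 (chr5:90772185-90772484, plus strand): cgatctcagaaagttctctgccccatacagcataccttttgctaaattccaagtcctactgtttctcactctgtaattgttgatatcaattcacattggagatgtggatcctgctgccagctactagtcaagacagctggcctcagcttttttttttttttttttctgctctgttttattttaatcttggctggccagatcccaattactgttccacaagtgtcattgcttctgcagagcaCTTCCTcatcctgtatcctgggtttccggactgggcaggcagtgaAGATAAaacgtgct
Ppbp (chr5:90768268-90768567, plus strand): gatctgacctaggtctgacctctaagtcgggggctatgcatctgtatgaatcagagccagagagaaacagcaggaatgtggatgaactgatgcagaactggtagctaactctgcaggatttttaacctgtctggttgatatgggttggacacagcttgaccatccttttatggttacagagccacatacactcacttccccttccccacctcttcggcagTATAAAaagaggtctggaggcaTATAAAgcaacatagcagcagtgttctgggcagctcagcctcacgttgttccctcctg
Itga2b (chr11:102469834-102470133, minus strand): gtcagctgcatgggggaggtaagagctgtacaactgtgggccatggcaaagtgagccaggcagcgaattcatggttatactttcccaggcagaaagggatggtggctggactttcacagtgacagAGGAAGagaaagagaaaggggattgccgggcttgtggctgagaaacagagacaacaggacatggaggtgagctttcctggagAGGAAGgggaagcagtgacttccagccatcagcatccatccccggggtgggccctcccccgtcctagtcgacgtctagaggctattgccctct
Cd9 (chr6:125494711-125495010, minus strand): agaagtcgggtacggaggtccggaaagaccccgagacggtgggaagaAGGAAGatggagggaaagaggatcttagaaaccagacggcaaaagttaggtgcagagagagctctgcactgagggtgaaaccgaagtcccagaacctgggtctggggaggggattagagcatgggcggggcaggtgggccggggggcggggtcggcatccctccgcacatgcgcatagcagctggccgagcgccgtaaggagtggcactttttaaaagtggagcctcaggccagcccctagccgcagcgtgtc
Pf4 and Itga2b, which were both higher in MHCII_hi, both held ETS letters, at 9 bases before the Pf4 start and at 125 and 43 bases before the Itga2b start. Cd9 held them 203 bases before its start. The windows of Gp9, which was not called, and Gp1bb, which was too low to test, held ETS letters too. Those of Ppbp, which was lower, and Treml1, which was not called, held none. The Plek window began at no GENCODE M21 transcript and was left out of the counts. Of the other 7 windows, 5 held ETS letters, against 46.5% of 32851 windows, and 2 held GATA letters (Pf4 and Gp1bb), against 29.8%. Ppbp alone held TATAAA, at 30 and 8 bases before its start, as did 8.32% of windows. The RUNX letters were in 1 window (Gp9; 16.8% of windows) and the NF-E2 letters in none (5.20% of windows).

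The lineage genes did not move as a block. Of the 4 shared genes, 3 were higher in MHCII_hi by 1.63 to 2.20 times and none was lower. Of the 4 platelet-specific genes that reached the expression limit, 2 were higher by about 1.2 times, 1 was 2.30 times lower and 1 was not called, and the other 2, Gp1bb and Vwf, were too low to test. The median log2 fold change was 0.70 for the shared genes and 0.07 for the 4 tested platelet-specific genes, beside −0.12 for all tested genes. These counts were the same after median-ratio scaling, quantile normalization and scaling without neutrophil genes. With background shares of 20.4% higher and 40.6% lower among all tested genes, calls as such were common. In RNA from pooled cells, fewer cells of a type and less RNA per cell cannot be told apart.

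**Figure D1:**
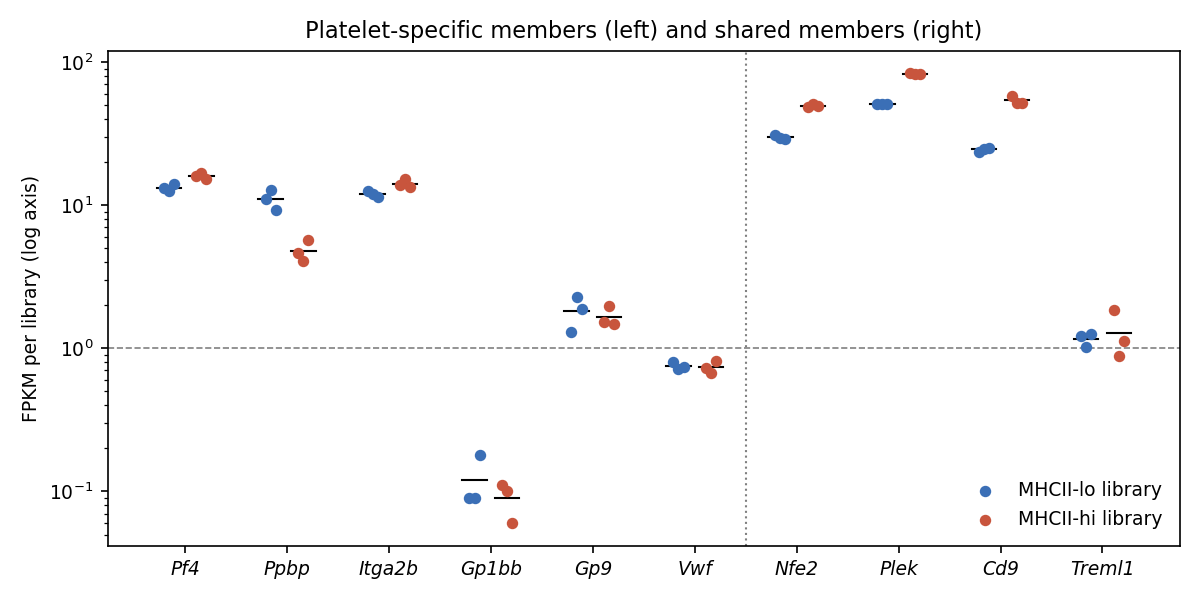
FPKM of the 10 genes in each library on a log axis (points: libraries; black lines: group means; dashed line: 1 FPKM). Nfe2, Plek and Cd9 lie wholly higher in MHCII_hi, Ppbp lies wholly lower, and Gp1bb, Gp9, Vwf and Treml1 overlap between the groups.

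Pf4 and Ppbp encode chemokines of the platelet alpha granule and lie side by side, 2371 bases apart on the plus strand of chromosome 5 (GRCm38; Ppbp 90768518 to 90770063, Pf4 90772435 to 90773383). Pf4 stood at 13.27, 12.53 and 14.08 FPKM in MHCII_lo and at 15.93, 16.90 and 15.23 FPKM in MHCII_hi. All MHCII_hi libraries were above all MHCII_lo libraries, a log2 fold change of 0.25 (SE 0.0547, limma adjusted p 0.00634). Ppbp went the other way, from 10.99, 12.69 and 9.24 FPKM in MHCII_lo to 4.60, 4.06 and 5.68 FPKM in MHCII_hi. Its highest MHCII_hi library was well under its lowest MHCII_lo library, with a log2 fold change of −1.05 (SE 0.134, adjusted p 0.000519). The ratio of Pf4 to Ppbp within a library was 1.24 ± 0.270 in MHCII_lo and 3.44 ± 0.741 in MHCII_hi, and every MHCII_hi library had the higher ratio. The exact two-sided permutation p for that ratio was 0.1, the smallest that 3 against 3 libraries allow.

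Itga2b encodes the alphaIIb chain of the fibrinogen receptor, known as CD41, and is also expressed in early blood progenitors (chromosome 11, 102453297 to 102470122, minus strand). It stood at 12.49, 11.98 and 11.46 FPKM in MHCII_lo and at 13.82, 15.22 and 13.45 FPKM in MHCII_hi, without overlap. Its log2 fold change was 0.22 (SE 0.0548, adjusted p 0.0107), and the call was lost when no filter on low values was used (adjusted p 0.0535). Itgb3, which encodes the partner chain, rose from 6.26 ± 0.232 to 7.89 ± 0.388 FPKM (adjusted p 0.00207). The ratio of Itga2b to Itgb3 was 1.91 ± 0.0265 in MHCII_lo and 1.80 ± 0.127 in MHCII_hi, with the highest MHCII_hi library (1.88) just under the lowest MHCII_lo library (1.89). The exact two-sided permutation p for this ratio was 0.1 as well.

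**Figure D2:**
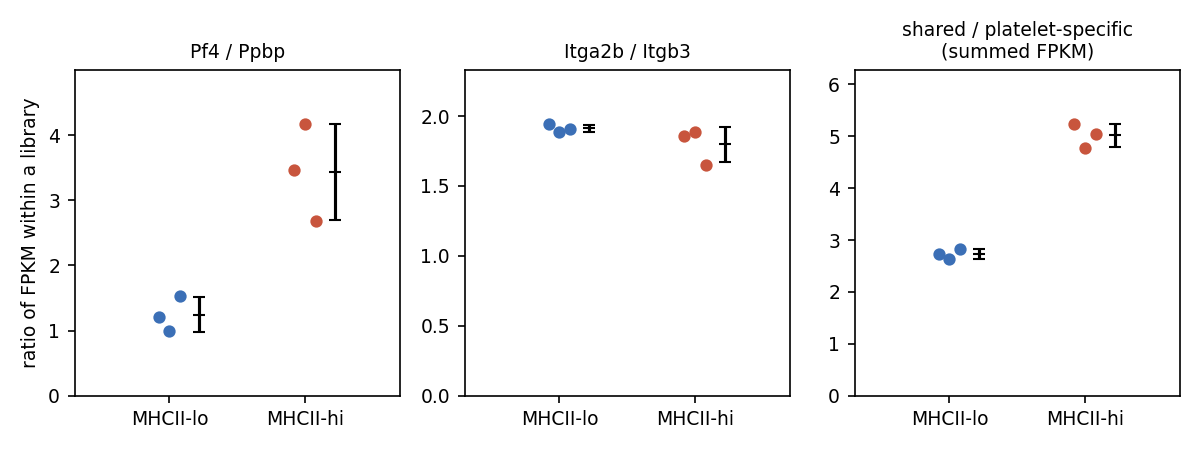
Ratios of FPKM within each library (coloured points) with the mean and SD over 3 libraries (black). The Pf4 to Ppbp ratio and the ratio of summed shared to summed platelet-specific genes are higher in all MHCII_hi libraries. The Itga2b to Itgb3 ratio lies between 1.65 and 1.94, with all MHCII_hi libraries below all MHCII_lo libraries.

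The glycoprotein Ib-IX-V complex is the platelet receptor for von Willebrand factor. Gp9, its glycoprotein IX subunit (chromosome 6, 87778072 to 87779768), read 1.31, 2.29 and 1.88 FPKM in MHCII_lo and 1.52, 1.97 and 1.49 FPKM in MHCII_hi. The groups overlapped, and the log2 fold change of −0.08 was not called (95% interval −0.42 to 0.26, adjusted p 0.664). The direction turned to 0.04 without MHCII_lo replicate 2. Gp1bb, the Ib beta subunit (chromosome 16, 18620317 to 18622403, minus strand), was the lowest of the 10 genes, at 0.09, 0.09 and 0.18 FPKM in MHCII_lo and 0.11, 0.10 and 0.06 FPKM in MHCII_hi. In GENCODE M21, 1902 of its 2087 exon bases also belong to Septin5 on the same strand, and 867 to Gm49601, so how reads were divided among them is uncertain. Septin5 stood at 6.09, 6.80 and 5.87 FPKM in MHCII_lo and 22.58, 23.14 and 22.39 FPKM in MHCII_hi. Other subunits of the complex were at levels like that of Gp9. Gp1ba was at 1.23 ± 0.165 and 1.64 ± 0.139 FPKM (log2 fold change 0.24, adjusted p 0.0481), a call that was lost without any single library other than MHCII_hi replicate 2 (log2 fold change 0.18 to 0.28, adjusted p up to 0.135). It was also lost at a pseudocount of 0.1 (adjusted p 0.0531) and without a filter on low values (0.113). Gp5 was at 1.45 ± 0.123 and 1.44 ± 0.346 FPKM and was not called (adjusted p 0.932).

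Vwf encodes von Willebrand factor, the adhesive protein that platelets, their precursors and endothelium make, and its RNA is also used to mark platelet-biased HSCs (chromosome 6, 125546774 to 125686679). It stayed under 1 FPKM in all libraries, at 0.80, 0.72 and 0.74 FPKM in MHCII_lo and 0.73, 0.67 and 0.81 FPKM in MHCII_hi. The groups overlapped throughout. In the fit without a filter, its log2 fold change was −0.01 (95% interval −0.15 to 0.12, adjusted p 0.984), and that of Gp1bb was −0.04 (−0.14 to 0.07, adjusted p 0.5905). Of 12 endothelial markers, 9 were below the limit for testing, none of them above 0.75 FPKM and Sox17 at 0 in all libraries. The 3 tested were lower in MHCII_hi (2 when scaled without neutrophil genes), among them Pecam1, which platelets carry too (12.2 ± 0.338 to 7.27 ± 0.486 FPKM), and Eng (6.32 ± 0.0458 to 3.33 ± 0.0981 FPKM). Without the filter, 4 of the 12 were lower and 2 higher, with a median log2 fold change of 0.02. The 2 higher ones, named after their values were seen, were Robo4 (0.0367 ± 0.0321 to 0.203 ± 0.0208 FPKM) and Cldn5, which was listed at 0 in MHCII_lo and at 0.03 to 0.06 FPKM in MHCII_hi. The summed endothelial list went from 21.87 to 22.48 FPKM in MHCII_lo down to 13.55 to 14.21 FPKM in MHCII_hi. Pecam1 and Eng made up most of that sum in both groups, so its fall was mainly theirs.

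Of the shared genes, Plek, Nfe2 and Cd9 had higher FPKM in every library than each of the platelet-specific genes, while Treml1 was among the lowest. Cd9 encodes a tetraspanin of platelets, megakaryocytes and several leukocytes (chromosome 6, 125460266 to 125494791, minus strand). Its values were 23.57, 24.90 and 25.30 FPKM in MHCII_lo and 58.21, 52.15 and 51.88 FPKM in MHCII_hi, so that every MHCII_hi library was at least 2 times above every MHCII_lo library. The log2 fold change was 1.10 (SE 0.0519, adjusted p 3.65e-06), and 96.9% of tested genes had a lower one. Vwf is the next protein-coding gene along the chromosome, 51982 bases away, and read 0.67 to 0.81 FPKM across all libraries. Nfe2 encodes the p45 subunit of NF-E2, which is needed for platelet release and is also active in red cell precursors (chromosome 15, 103248212 to 103258403, minus strand). It read 30.87, 29.48 and 29.01 FPKM in MHCII_lo and 48.26, 50.57 and 49.57 FPKM in MHCII_hi, again without overlap (log2 fold change 0.71, SE 0.0333, adjusted p 3.52e-06).

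Plek encodes pleckstrin, the main substrate of protein kinase C in platelets, which leukocytes also hold (chromosome 11, 16971206 to 17052381, minus strand). Its libraries were almost equal within each group, at 50.87, 50.60 and 50.88 FPKM in MHCII_lo and 83.57, 82.23 and 82.68 FPKM in MHCII_hi (log2 fold change 0.69, SE 0.0204, adjusted p 4.10e-07). The coefficient of variation was 0.313% and 0.823%. Treml1 encodes the TREM-like receptor of platelet granules (chromosome 17, 48359916 to 48367176). Its values of 1.22, 1.02 and 1.26 FPKM in MHCII_lo and 1.86, 0.88 and 1.12 FPKM in MHCII_hi overlapped, and MHCII_hi replicate 1 was the highest and replicate 2 the lowest of all 6. It was not called (log2 fold change 0.06, 95% interval −0.32 to 0.44, adjusted p 0.777), and the value turned to −0.12 without MHCII_hi replicate 1. Treml1 was thus nearer in level and in fold change to Gp9 than to the other 3 shared genes. Annotated genes on the opposite strand share 218 exon bases with Cd9 (Gm26728, at most 0.04 FPKM) and 199 with Plek (Cnrip1, at most 0.20 FPKM), and it is not stated whether strand was used to quantify them.

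**Figure D3:**
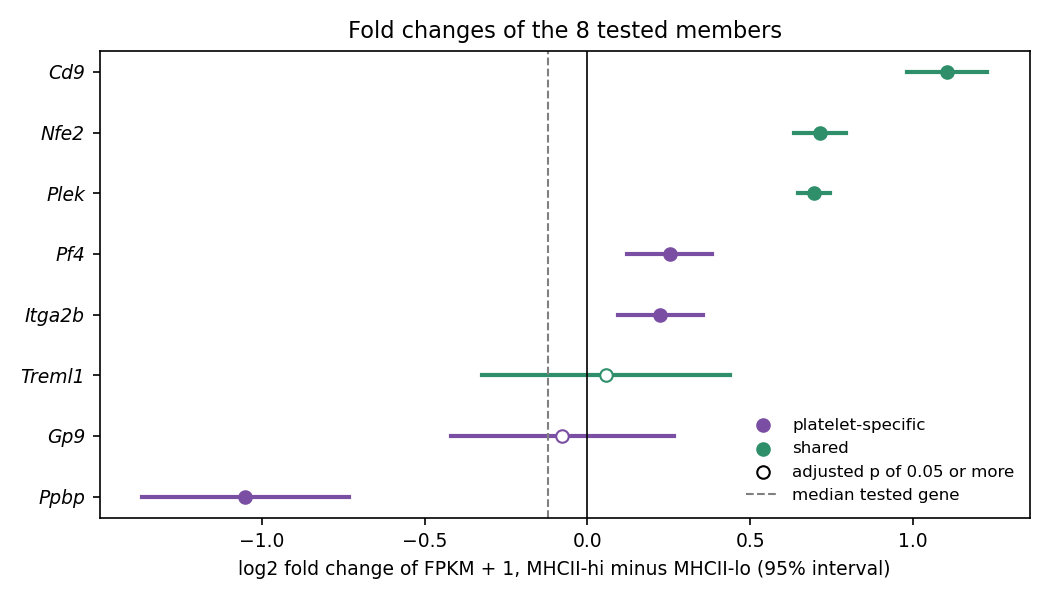
Log2 fold changes of the 8 tested genes with 95% intervals from limma (filled: adjusted p under 0.05; dashed line: median tested gene at −0.12). Cd9, Nfe2 and Plek lie at 0.69 to 1.10, Pf4 and Itga2b at 0.25 and 0.22, and Ppbp at −1.05.

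FPKM are per length, so the genes were ranked by them, but only roughly. The unit was inferred, and how reads were divided over Gp1bb is uncertain. In MHCII_lo the order was Plek, Nfe2, Cd9, Pf4, Itga2b, Ppbp, Gp9, Treml1, Vwf and Gp1bb, and only Itga2b and Ppbp overlapped among neighbours in that order. In MHCII_hi Cd9 stood above Nfe2, and the order was otherwise the same. Ppbp there lay below Itga2b without overlap, and only Gp9 and Treml1 overlapped among neighbours. The 6 platelet-specific genes summed to 37.58 to 40.30 FPKM in MHCII_lo and to 36.71 to 38.92 FPKM in MHCII_hi, ranges that overlapped. Summed values of whole libraries differed between the groups, however. As a share of all values, the 6 genes made up 0.0119 ± 0.000426% in MHCII_lo and 0.0108 ± 0.000394% in MHCII_hi. The 4 shared genes summed to 106.0 to 106.53 and to 185.25 to 191.90 FPKM. The ratio of these sums was 2.73 ± 0.101 in MHCII_lo and 5.02 ± 0.228 in MHCII_hi.

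Markers of other blood cells differed between the fractions in the same libraries. All 16 neutrophil markers were higher in MHCII_hi, with a summed level of 9265 to 9347 FPKM in MHCII_lo and 54450 to 55071 FPKM in MHCII_hi, and S100a9 alone went from 3598 ± 25.0 to 23315 ± 260.3 FPKM. Of 19 erythroid markers, 17 were lower and none higher, summing to 672.93 to 684.35 and to 407.27 to 426.29 FPKM (Car1 152 ± 1.90 to 86.5 ± 4.18 FPKM, Car2 110 ± 0.592 to 47.9 ± 1.98 FPKM). Under the other 3 scalings 16 or 17 erythroid markers were lower, and 5 or 6 of the basophil and eosinophil markers given next. Of 11 basophil and mast cell markers, 9 were tested, 6 were lower and 1 higher (Prss34 440.3 ± 11.0 to 159 ± 3.46 FPKM), and the sum went from 856.18 to 883.54 down to 416.22 to 426.78 FPKM. Of 8 eosinophil markers, 6 were called lower and 1 higher, summing to 5091 to 5140 and 2207 to 2210 FPKM (Prg2 3670 ± 34.5 to 1570.3 ± 7.11 FPKM). Monocyte and macrophage markers numbered 12, of which 10 were tested, 9 were called lower and 1 higher (Fn1 134 ± 0.838 to 65.3 ± 1.88 FPKM, Lyz2 2600 ± 14.7 to 2125 ± 18.3 FPKM), with sums of 3482 to 3531 and 2643 to 2656 FPKM. The part of these cell types in the values of Nfe2, Plek, Cd9 and the platelet-specific genes was not tested.

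Markers of the B lineage and of stem cells followed no single direction. Of 10 B cell markers, 2 were tested, and Cd79a was higher (2.41 ± 0.336 to 4.76 ± 0.552 FPKM) while Cd79b was not called (10.2 ± 0.766 and 9.54 ± 0.560 FPKM). The B cell sum was 13.50 to 16.40 FPKM in MHCII_lo and 16.89 to 17.85 FPKM in MHCII_hi. Of 8 plasma cell markers, 7 were tested, 4 were higher and 1 lower (Jchain 181 ± 2.05 to 229 ± 5.78 FPKM), with sums of 282.91 to 287.11 and 344.40 to 351.25 FPKM. Of 12 stem cell markers, 6 were tested, 2 were higher and 2 lower. Cd34 fell from 15.4 ± 0.411 to 11.6 ± 0.230 FPKM, and Kit, at 14.3 ± 0.175 and 13.9 ± 0.318 FPKM, was not called. The stem cell sums overlapped, at 42.57 to 46.31 and 41.13 to 43.72 FPKM, with shares of all values of 0.0136 ± 0.000574% and 0.0124 ± 0.000434%.

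The wider lineage was read from 4 lists by role, which held 95 further genes, 74 of them tested. Over these lists 40 genes were higher in MHCII_hi and 20 lower, with a median log2 fold change of 0.14 beside −0.12 for all tested genes. The count of lower genes was 15 after median-ratio scaling and 13 when libraries were scaled without neutrophil genes, with 44 higher in both. Calls among all 12037 tested genes shifted too, from 2450 higher and 4883 lower as deposited. They numbered 3254 and 3285 after median-ratio scaling, 2817 and 4022 after quantile normalization, and 3397 and 3120 without neutrophil genes. The lists differed in direction, with more genes higher among granule genes and among cytoskeletal and signalling genes and more genes lower among transcription factors. Of all 95 genes, tested or not, 45 lay wholly higher in MHCII_hi and 28 wholly lower. These counts were 7 and 5 for receptors, and 13 and 3 for granule genes. They were 5 and 13 for transcription factors, and 20 and 7 for cytoskeletal and signalling genes.

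Transcription factors of megakaryocytes were tested in full, and 5 of 18 were higher and 13 lower (median −0.27). As many were higher under 3 other scalings, but 3 without MHCII_hi replicate 3, while the lower ones numbered 10, 10 and 8 after median-ratio scaling, quantile normalization and scaling without neutrophil genes. Gata1, the main factor of megakaryocytes and red cells, fell from 8.46, 7.99 and 8.39 FPKM to 4.76, 4.45 and 3.91 FPKM (limma adjusted p 6.35e-05), a log2 fold change of −0.79 (SE 0.0657). The ratio of Nfe2 to Gata1 within a library was therefore 3.599 ± 0.124 in MHCII_lo and 11.4 ± 1.27 in MHCII_hi. Gfi1b, a repressor that platelet formation needs, fell from 5.78 ± 0.294 to 3.59 ± 0.210 FPKM (adjusted p 0.000168), and Runx1 from 7.35 ± 0.341 to 5.08 ± 0.151 FPKM (adjusted p 0.000186). Of the 3 ETS factors on the list, Fli1 and Erg rose, from 22.2 ± 0.700 to 27.2 ± 0.942 FPKM (adjusted p 0.000732) and from 8.68 ± 0.372 to 14.6 ± 0.125 FPKM (adjusted p 9.98e-06). The third, Etv6, which was added to the named genes after its values were seen, fell from 31.2 ± 0.728 to 25.9 ± 0.518 FPKM (adjusted p 0.000349).

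Of 22 other surface receptors, 15 were tested, and 6 were higher and 2 lower (median 0.04), or 7 and 1 under 3 other scalings. When MHCII_lo replicate 1, MHCII_lo replicate 2 or MHCII_hi replicate 3 was left out, 1 was lower. The count of higher receptors fell to 4 or 5 when any library other than MHCII_lo replicate 2 was left out. It fell to 4 with the replicate number as a block and without a filter on low values. P2ry12, the ADP receptor that clopidogrel blocks, rose from 0.817 ± 0.133 to 2.68 ± 0.110 FPKM (adjusted p 5.07e-05). Selp, P-selectin of the alpha granule membrane, fell from 6.17, 6.18 and 6.56 FPKM to 3.92, 3.33 and 3.61 FPKM (log2 fold change −0.66, SE 0.0599, adjusted p 9.78e-05). F2rl3, a thrombin receptor, was not called (1.02 to 1.88 FPKM in MHCII_lo and 0.95 to 2.18 FPKM in MHCII_hi, adjusted p 0.8796). The collagen receptor Gp6 (0.153 ± 0.0751 and 0.0767 ± 0.0462 FPKM) and the podoplanin receptor Clec1b (0.413 ± 0.123 and 0.567 ± 0.115 FPKM) were below the limit, and their groups overlapped.

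Of 19 granule genes, 14 were tested, and 10 were higher and 2 lower (median 0.32), or 11 and 2 under 3 other scalings. F5, coagulation factor V, rose from 10.4 ± 0.552 to 15.9 ± 0.336 FPKM (adjusted p 4.76e-05), and Srgn, the granule proteoglycan serglycin of many blood cells, from 445 ± 6.23 to 559 ± 4.86 FPKM (adjusted p 4.98e-06). Nbeal2 and Lyst, related BEACH-domain proteins of which Nbeal2 is needed for alpha granules, rose about 2-fold, from 10.3 ± 0.395 to 21.1 ± 0.350 FPKM and from 9.60 ± 0.126 to 20.2 ± 0.370 FPKM (adjusted p 1.47e-06 and 5.80e-07). F13a1, the factor XIII A chain, which monocytes also make, fell from 178 ± 1.40 to 108 ± 1.18 FPKM (adjusted p 2.34e-07). Thbs1, thrombospondin, was at 63.7 ± 0.305 and 65.3 ± 0.896 FPKM and was not called (adjusted p 0.179), but was called higher after median-ratio scaling (0.00102), quantile normalization (0.0374) and scaling without neutrophil genes (0.000694). Mmrn1, multimerin, was below the limit for testing, at 0.660 ± 0.0436 and 1.09 ± 0.0416 FPKM, but its groups did not overlap. In the fit without a filter, its log2 fold change was 0.33 (95% interval 0.21 to 0.46, limma adjusted p 0.00894). Other platelet genes below the limit, from this and the other lists, were called in that fit too. Alox12 (log2 fold change −0.65, limma adjusted p 0.0115) and Itga2 (−0.30, adjusted p 0.0336) were lower. Timp3 (0.43, adjusted p 0.0131) and Gucy1a1 (0.13, adjusted p 0.0298) were higher.

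Of 36 cytoskeletal and signalling genes, 27 were tested, and 19 were higher and 3 lower (median 0.21), or 20 or 21 and 2 under 3 other scalings. Tubb1, the beta-tubulin of megakaryocytes and platelets, fell from 3.33, 2.76 and 3.09 FPKM to 0.55, 0.79 and 0.58 FPKM (log2 fold change −1.31, SE 0.0927, adjusted p 2.92e-05). No MHCII_hi library reached 1 FPKM. The 4 genes of this list with the smallest p, all of which many cell types express, were higher. They were Actn1, an alpha-actinin (9.71 ± 0.627 to 47.0 ± 1.63 FPKM, a log2 fold change of 2.16 at an adjusted p of 1.43e-07), Flna, filamin A (146 ± 2.31 to 249 ± 2.02 FPKM, adjusted p 2.09e-07), Myh9 and Zyx. Myh9, the non-muscle myosin heavy chain, rose from 57.9 ± 1.13 to 97.4 ± 0.307 FPKM (adjusted p 4.77e-07) and Zyx, zyxin, from 38.8 ± 0.985 to 73.7 ± 1.87 FPKM (adjusted p 7.40e-07). Rasgrp2, which activates Rap1 in platelets, was at 13.8 ± 0.414 and 14.2 ± 0.343 FPKM and was not called (adjusted p 0.487), but was called higher after median-ratio scaling (0.0145) and scaling without neutrophil genes (0.0098).

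**Figure D4:**
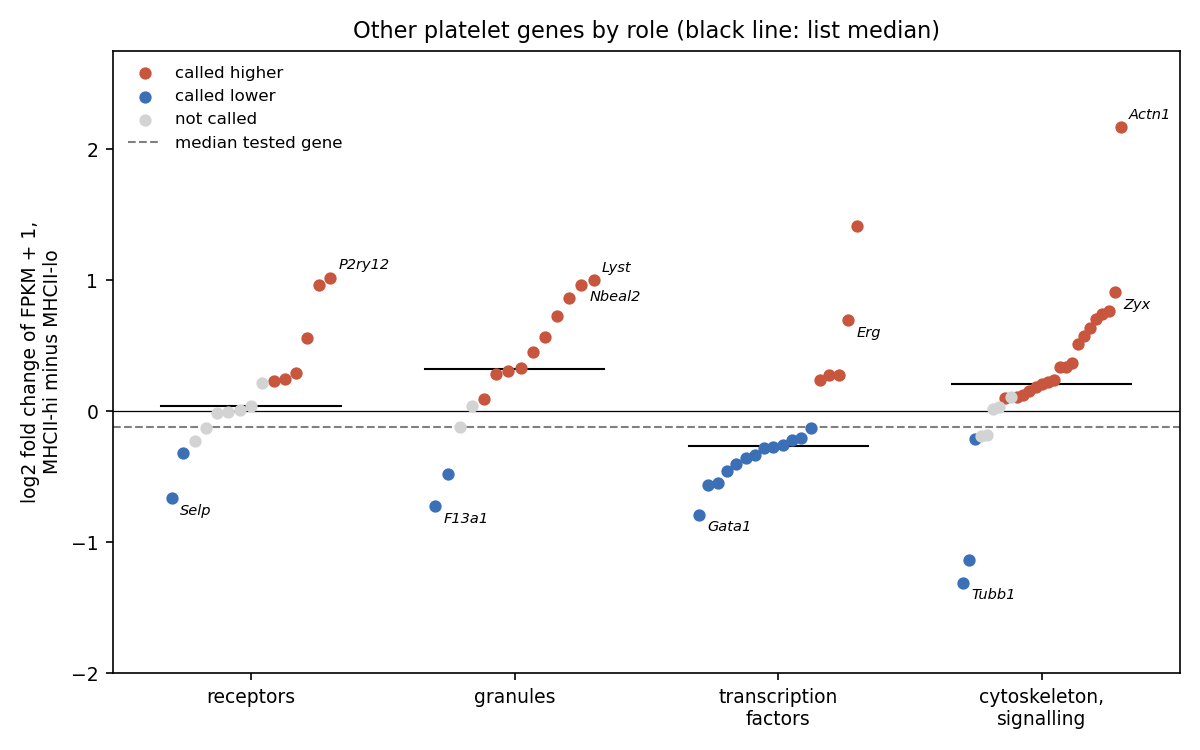
Log2 fold changes of 74 tested platelet genes in 4 role lists (red: called higher; blue: called lower; grey: not called; black line: list median; dashed line: median tested gene). Transcription factors lie mostly below 0 and granule and cytoskeletal genes mostly above, with Tubb1 at −1.31 and Actn1 at 2.16 as the extremes.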

How the data were processed

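Per the labels' protocols, RNA of sorted cells was extracted with a column kit and made into stranded mRNA libraries. The submitters' processing notes name fastp, HISAT2, StringTie and GRCm38 (mm10), without versions. The authors deposited 1 table per library, with 30803 rows, whose values were inferred to be FPKM from their decimals, their unequal sums and the use of StringTie. No header names the unit. Low values of single-exon genes showed no step of 1 fragment (highest mean cosine 0.056 to 0.105), so depth is unknown and no count model was used. Where a symbol was repeated (70 further rows), its row of highest mean was used.

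limma 3.58.1 (R 4.3.3), with its intensity trend switched on, was fitted to log2(FPKM + 1) of the 12037 genes averaging 1 FPKM or more. The design held the group alone, and p-values were adjusted over these genes by the Benjamini-Hochberg method and called at 0.05. The fit was also run on simulated data in which far fewer genes changed than were called here. No conclusion about these calls is drawn from that run. Positions come from GENCODE M21 (GRCm38), promoters from RefSeq. Other steps used scipy 1.17.1, numpy 2.4.6 and pandas 2.3.3 in Python 3.11.15. The 10 genes and all lists were chosen with earlier results of these data known. Named genes were the 10, a fixed set of 17 platelet genes, the 4 smallest p of each platelet list, and of each marker list the smallest p and the highest mean; 2 of these genes are not reported here. Alternatives were the pseudocount, filter, scaling, trend, replicate block, repeated symbols and each library left out.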

Additional observations from a re-analysis of the deposited data

How the results depend on the processing

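Of 732 values of 53 named genes under the alternatives, 704 were counted as unchanged and 9 lost the call (8 of them for Gp1ba and 1 for Itga2b). A further 5 gained a call (Thbs1 and Rasgrp2) and 14 changed sign, all of genes that were not called. Genes below the limit for testing had no call to keep. Their reference value came from the fit without a filter, so in that fit they counted as unchanged by construction. The filter, trend and replicate block leave a fold change as it is, so only the call could change there. Without a filter on low values, with 30733 genes tested, 1 platelet-specific gene was called higher and Itga2b lost its call (limma adjusted p 0.0535). Why that call was lost was not tested. Scaling to the total without neutrophil genes lowered the count of lower genes to 13 in the other platelet lists and to 3120 of all genes (4883 as deposited); the cause was not tested. Sign changes were seen for Gp9 (0.00583 without neutrophil genes), Gp5 (0.056 after median-ratio scaling, 0.0433 after quantile normalization and 0.0647 without neutrophil genes), Cd79b (0.0247 and 0.0377) and Kit (0.0648 and 0.0781), the last pairs after median-ratio scaling and without neutrophil genes. Leaving out each library gave −0.215 to 0.0397 for Gp9, −0.116 to 0.186 for Treml1, −0.075 to 0.111 for Gp5 and −0.122 to 0.231 for F2rl3; the cause was not tested. With the replicate number as a block, 36 other platelet genes were higher and 18 lower, 2305 of all genes were higher and 4659 lower, and Gp1ba lost its call (adjusted p 0.0863), while the counts for the 10 genes were the same. Deviations of same-numbered libraries did not correlate (−0.0533, −0.0456 and −0.0435), and no library correlated best with its own number. Unknown depth limits what can be said of Gp1bb, Vwf, Gp9 and Treml1.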

Other observations

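Genes next to the 10 in the annotation were compared as well. In the chemokine cluster of chromosome 5, the genes on either side of Ppbp and Pf4 were nearly silent, with Cxcl5 at 0.0433 ± 0.0404 and 0.0833 ± 0.0404 FPKM and Cxcl3 at 0.257 ± 0.0839 and 0.163 ± 0.0321 FPKM in MHCII_lo and MHCII_hi. Beside Nfe2, both Hnrnpa1, an RNA-binding protein (312 ± 6.96 to 214 ± 1.46 FPKM), and Copz1, a coatomer subunit (44.1 ± 0.859 to 40.1 ± 1.42 FPKM), were called lower in MHCII_hi, while Nfe2 was higher. Beside Treml1, Trem2, a receptor of macrophages, fell from 2.30 ± 0.290 to 1.06 ± 0.0379 FPKM (limma adjusted p 0.0005), and Nfya, a CCAAT-binding factor, from 12.9 ± 0.0971 to 11.4 ± 0.139 FPKM (adjusted p 0.0029). Gpatch8 next to Itga2b (5.46 ± 0.363 and 5.34 ± 0.307 FPKM) and Rab43 next to Gp9 (13.5 ± 0.788 and 13.1 ± 0.701 FPKM) were not called.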
